A study of Mus musculus with 6 samples.

Results

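The 48 genes described here encode the machinery that brings proteins into mitochondria, folds the inner membrane into cristae, and fuses and divides the organelle. They were taken from a fixed list of symbols and found on the arrays by matching the transcript accession of each probe to a RefSeq gene symbol, and they are 48 of the 23462 genes that could be named on this array. Their RNA was measured in microglia, the resident immune cells of the brain, from mice with acute ischemic stroke (AIS), with or without overexpression of PGC-1α, a transcriptional coactivator known for driving mitochondrial biogenesis. The control group was 3 arrays of PGC-1α f/f microglia, from mice carrying a Cre-dependent Pgc-1α transgene tagged with eGFP but no Cre. The other group was 3 arrays of mPGC-1α microglia, from littermates that carried the same transgene and a tamoxifen-inducible Cre under Cx3cr1. By its name in the paper, this Cre is a targeted allele of the Cx3cr1 gene, so the groups also differ in Cx3cr1 genotype. All samples were labelled male and 10 weeks old, on a C57BL/6 background, and the cells had been collected by magnetic selection for the receptor P2RY12. Cx3cr1 is also active in monocytes and other macrophages, and the study left an interval between tamoxifen and the experiments to make the induction specific. The time between stroke and collection, and whether each array was a separate mouse, are not given in the sources used here, so p-values measure the spread between these samples, which may be technical.

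Almost all mitochondrial proteins are encoded in the nucleus and made in the cytosol. They enter through the TOM complex of the outer membrane and are then handed on by small TIM chaperones to the outer or inner membrane, or threaded through the TIM23 channel into the matrix by an ATP-driven motor built around the chaperone mtHsp70. The MICOS complex holds open the necks of the cristae, mitofusins and OPA1 fuse the membranes, and DRP1 with its receptors divides them. In the study, TOMM20 and IMMT (mitofilin) served as protein markers of mitochondrial content, which is why their RNAs are given in full below.

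Between 71.0% and 86.5% of the spots on an array were well above background, and 0 were saturated. The scanner software marks uneven or deviating spots as outliers, and such spots were left out here. Most of them, 3010 and 4931, were on the 2 arrays numbered 3, which shared a second slide, where the other 4 arrays had 549 to 1094 each. Of the 79 probes for the 48 genes, 18 were marked on at least 1 array, and 13 of these on mPGC-1α array 3. Levels are given in log2, relative to the 75th percentile of the processed signals of their own array. A difference is the mean mPGC-1α level minus the mean control level, so a value of 1 is a doubling. The number of arrays limits the precision. Ppargc1a, which encodes PGC-1α, differed by -0.33 (standard error, SE, 0.24, limma adjusted p = 0.817), and by -0.43 on a second probe, so neither probe was higher in the mPGC-1α arrays. Whether these probes cover the transcript of the transgene is not known here, and mPGC-1α therefore names the label of an array. Cx3cr1, whose promoter drives Cre, differed by -1.25 (SE 0.24, limma adjusted p = 0.669), with the 3 mPGC-1α arrays all below the 3 control arrays. Only the mPGC-1α mice carried the Cre allele of this gene, and its part in that difference was not tested. The microglial genes P2ry12 and Tmem119 were well above background on all 6 arrays, between 3.54 and 4.01 and between 4.76 and 5.11 with marked spots kept.

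Markers of neurons, oligodendrocytes and astrocytes had larger median differences than the 48 genes. The median difference was 0.66 over 15 neuron markers (13 above 0), 0.72 over 12 oligodendrocyte markers (11 above 0) and 0.95 over 9 astrocyte markers (8 above 0), against 0.11 over 13 microglia markers. The summed signal of the oligodendrocyte list, relative to the 75th percentile of the array, was 12.5 to 18.4 on the control arrays and 21.2 to 30.5 on the mPGC-1α arrays. For the astrocyte list it was 12.1 to 16.2 and 17.4 to 50.4, and for the neuron list 35.3 to 56.1 and 53.8 to 63.3. The neuron sum is weighted to Snap25, which had log2 levels of 4.84 to 5.69 and differed by 0.28. The next highest neuron marker, Eno2, read 1.02 to 2.12. For the 10 endothelial and mural markers the sum was 1.18 to 2.25 and 1.06 to 1.30, with 7 of them well above background on all 6 arrays. The 7 tested genes of that list had a median difference of 0.24, with 4 above 0. The summed signal of the microglia list was 256 to 293 and 283 to 308. Markers of monocytes, macrophages and neutrophils were well above background too, with ranges that overlapped between the groups. The sum was 44.5 to 61.0 and 33.1 to 75.1 over 10 monocyte and macrophage markers, and 129 to 184 and 104 to 203 over 9 neutrophil markers. All of the oligodendrocyte, astrocyte and microglia markers and 14 of the 15 neuron markers were well above background on all 6 arrays. Every cell type uses the 48 genes, and the part of these other cells in the differences below was not tested. In bulk samples, fewer cells of a type and less RNA per cell cannot be told apart.

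**Figure D1:**
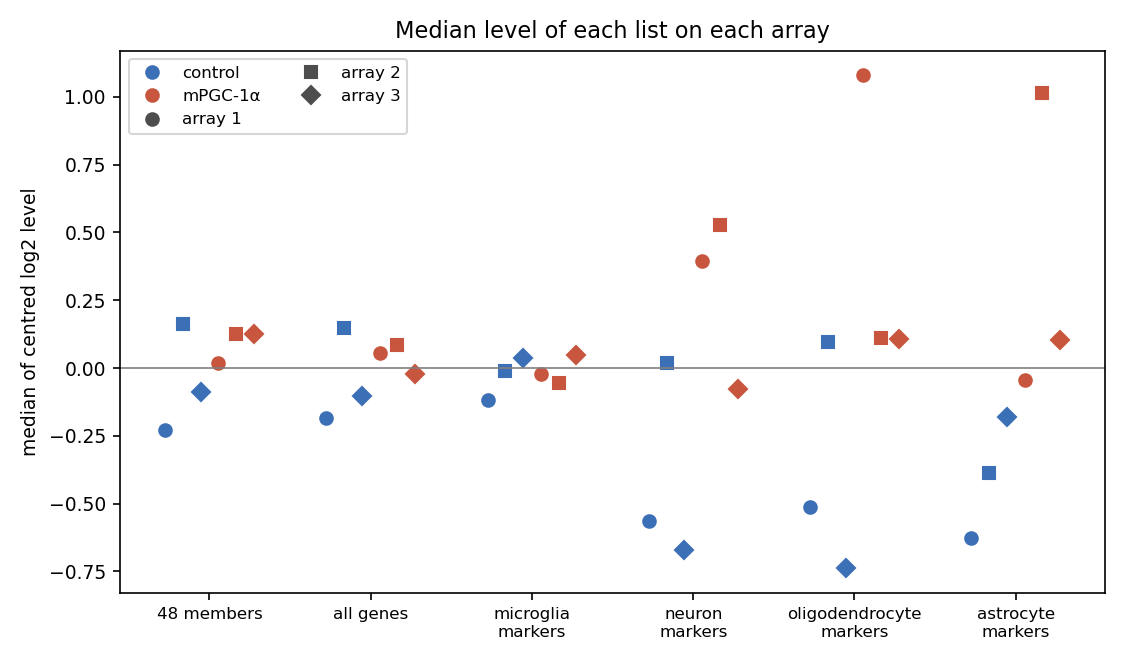
Median level on each array of the 48 genes, of all 18222 genes tested and of 4 marker lists (y axis, log2, each gene centred on the mean of its group means, blue for control and red for mPGC-1α, with symbols for array number). The medians of the 48 genes run from -0.23 to 0.16 on the control arrays and from 0.019 to 0.13 on the mPGC-1α arrays, with control array 2 above all 3 mPGC-1α arrays, while the neuron, oligodendrocyte and astrocyte lists spread more widely.

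None of the 48 genes differed between the groups at the threshold. By its brightest probe, 0 of 48 had a limma adjusted p below 0.05 and 0 of 48 had an unadjusted p below 0.05, where 0% and 5.94% of all 18222 genes tested did. The median difference of the 48 was 0.12, against 0.09 over all genes, and 36 of the 48 (75%) were above 0, where 61.7% of all genes were. Of the 48, 27 lay above the median of all genes. After quantile normalization the share above 0 was 64.6% of the 48 and 66.8% of all genes, and in the authors' normalized values it was 62.5% and 61.7%. Among the 35 genes with a value on every array, the groups were fully apart for 1 (2.86%), against 11.2% of all genes. Differences were small: 46 of 48 lay within 0.5 of 0, and the 95% interval lay within 1 of 0 for 42 of 48. The median spread between arrays of a group was 0.25 for the 48 genes and 0.32 for all genes. Within the first slide, with 2 arrays of each group, the median difference of the 48 was 0.068, and that of all genes 0.072. On the second slide, which held 1 array of each group, it was 0.18 over 37 of the 48 and 0.10 over all genes. Without control array 1 the medians were 0.0046 for the 48 and 0.015 for all genes, and without control array 2 they were 0.22 and 0.21.

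**Figure D2:**
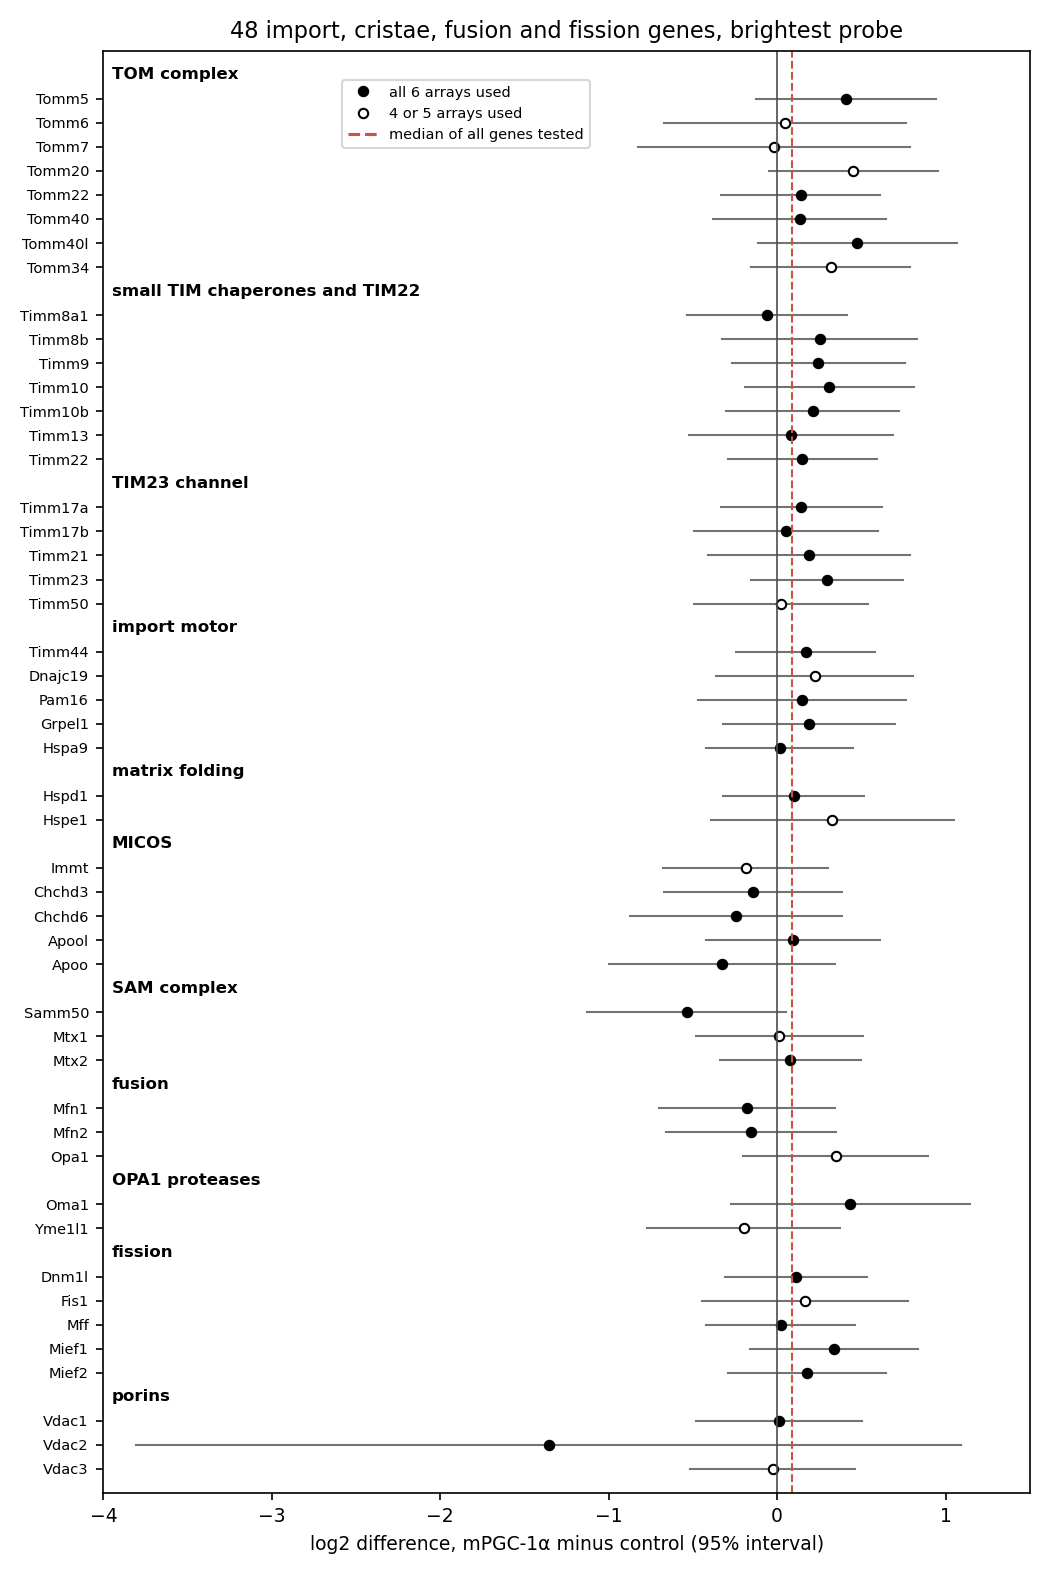
Difference of each of the 48 genes on its brightest probe (x axis, log2, mPGC-1α minus control, bars for the limma 95% interval), grouped by role, with open circles where a marked spot left fewer than 6 values and a dashed line at the median of all genes, 0.09. Every interval includes 0, and Vdac2 at -1.36 and Samm50 at -0.54 are the genes furthest from 0.

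PGC-1α acts on promoters through transcription factors, among them ERRα, NRF1 and GABPA (NRF2), which are known for controlling nuclear genes of mitochondria. RefSeq promoter windows (GRCm38.p6, 250 bases before to 50 after the start of the gene) were given for 42 of the 48 genes. They were searched on both strands for 3 letter strings, TCAAGGTCA for ERR, GCGCATGCG for NRF1 and CCGGAAGTG for GABPA. A match was found for 8 of 42 genes (19.0%), against 4.54% of 27025 genes with a window. The GABPA string was found in Fis1, Mief1, Mtx2, Timm10 and Timm23, 11.9% against 2.25% of all genes. The NRF1 string was found in Opa1 and Timm13 (4.76% against 1.95%) and the ERR string in Timm8b alone (2.38% against 0.466%). The genes with a window include genes not tested on the arrays. The sites below are shown as places where the strings occur, and whether the coactivator acts there was not tested. Each is given 5′ to 3′ on the strand of the gene with 10 bases on either side, and the capitals mark the match, which for Timm23, Timm13 and the second Opa1 match is the reverse complement of the string:
Timm8b, ERR, chr9:50603795-50603823, + strand: tttcgagggcTCAAGGTCActctacaacc
Opa1, NRF1, chr16:29579265-29579293, + strand: gtggctccccGCGCATGCGcatgtcatcc
Timm13, NRF1, chr10:80901144-80901172, - strand: ttatattgtaCGCATGCGCagcggggagg
Fis1, GABPA, chr5:136962086-136962114, + strand: caggtcgatgCCGGAAGTGcctctccgcc
Mief1, GABPA, chr15:80234005-80234033, + strand: gaggggccgaCCGGAAGTGcttccgcctc
Mtx2, GABPA, chr2:74825777-74825805, + strand: ggcggagcagCCGGAAGTGccggcgcgcg
Timm10, GABPA, chr2:84827027-84827055, + strand: agacttccttCCGGAAGTGacccacgtgc
Timm23, GABPA, chr14:32201922-32201950, - strand: tcgcgcttccCACTTCCGGgccgcacaca
The ERR match of Timm8b begins 96 bases before the start of the gene, and the GABPA matches of Fis1 and Timm10 begin 19 and 16 bases after it. Opa1 holds a second, overlapping NRF1 match on the other strand, because the string reads nearly the same both ways, and Mtx2 holds a second GABPA match. The median difference was 0.27 over the 8 genes with a match and 0.11 over the 34 without, and none of these genes passed the test. A match describes letters and not binding.

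The TOM complex is the entry gate, with the receptors Tomm20 and Tomm22, the pore Tomm40 and its paralog Tomm40l, and the small subunits Tomm5, Tomm6 and Tomm7. Tomm34, a cytosolic helper of import, is counted with it. Of these 8 genes, 7 were above 0, with a median of 0.23. Leaving out 1 array gave medians from 0.16 to 0.44. The highest was without control array 2, where the median of all genes was 0.21. None of the 3 probes of Tomm20 overlapped between the groups. On the brightest (A_55_P2722842) the control arrays read 1.77, 1.97 and 1.66 in the order of their numbers, which is kept throughout. The first 2 mPGC-1α arrays read 2.14 and 2.37, and the spot of the third was marked as an outlier. Both mPGC-1α values lay above all 3 control values, and the marked spot, read at 2.27, did as well. The difference was 0.45 (SE 0.22, limma adjusted p = 0.731). The second probe (A_66_P107768) gave 1.33, 1.60 and 1.74 on the control arrays and 2.04, 1.87 and 1.87 on the mPGC-1α arrays, which differ by 0.37 (SE 0.19, limma adjusted p = 0.744). The third (A_55_P2041017) gave 1.36, 1.57 and 1.32 against 1.84, 1.63 and 1.73, a difference of 0.32 (SE 0.18, limma adjusted p = 0.773). On both, the 3 mPGC-1α arrays were the highest 3, and the lowest of them exceeded the highest control by less than the range within the control group. An exact permutation test, two-sided, gave p = 0.1 for each, the smallest value that 3 arrays against 3, or 2 against 3, can give.

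Tomm34 had levels of 1.31 and 1.42 on control arrays 1 and 3, with array 2 marked, and of 1.71, 1.65 and 1.68 on the mPGC-1α arrays. The measured values did not overlap, and the difference was 0.32 (SE 0.21, limma adjusted p = 0.798). With the marked spot of control array 2 kept, at 1.88, the groups did overlap. Tomm40l (0.48) and Tomm5 (0.41) had differences near that of Tomm20 but overlapping groups, with limma adjusted p-values of 0.760 and 0.773. The dimmer probe of Tomm40l differed by 0.042, and that of Tomm5 by 0.39. Tomm22 and Tomm40 had differences of 0.14 and 0.13, and both dimmer probes of Tomm40 were below 0, at -0.22 and -0.32. Tomm6 (0.048) and Tomm7 (-0.017) were near 0, with marked spots on control array 3 for both.

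**Figure D3:**
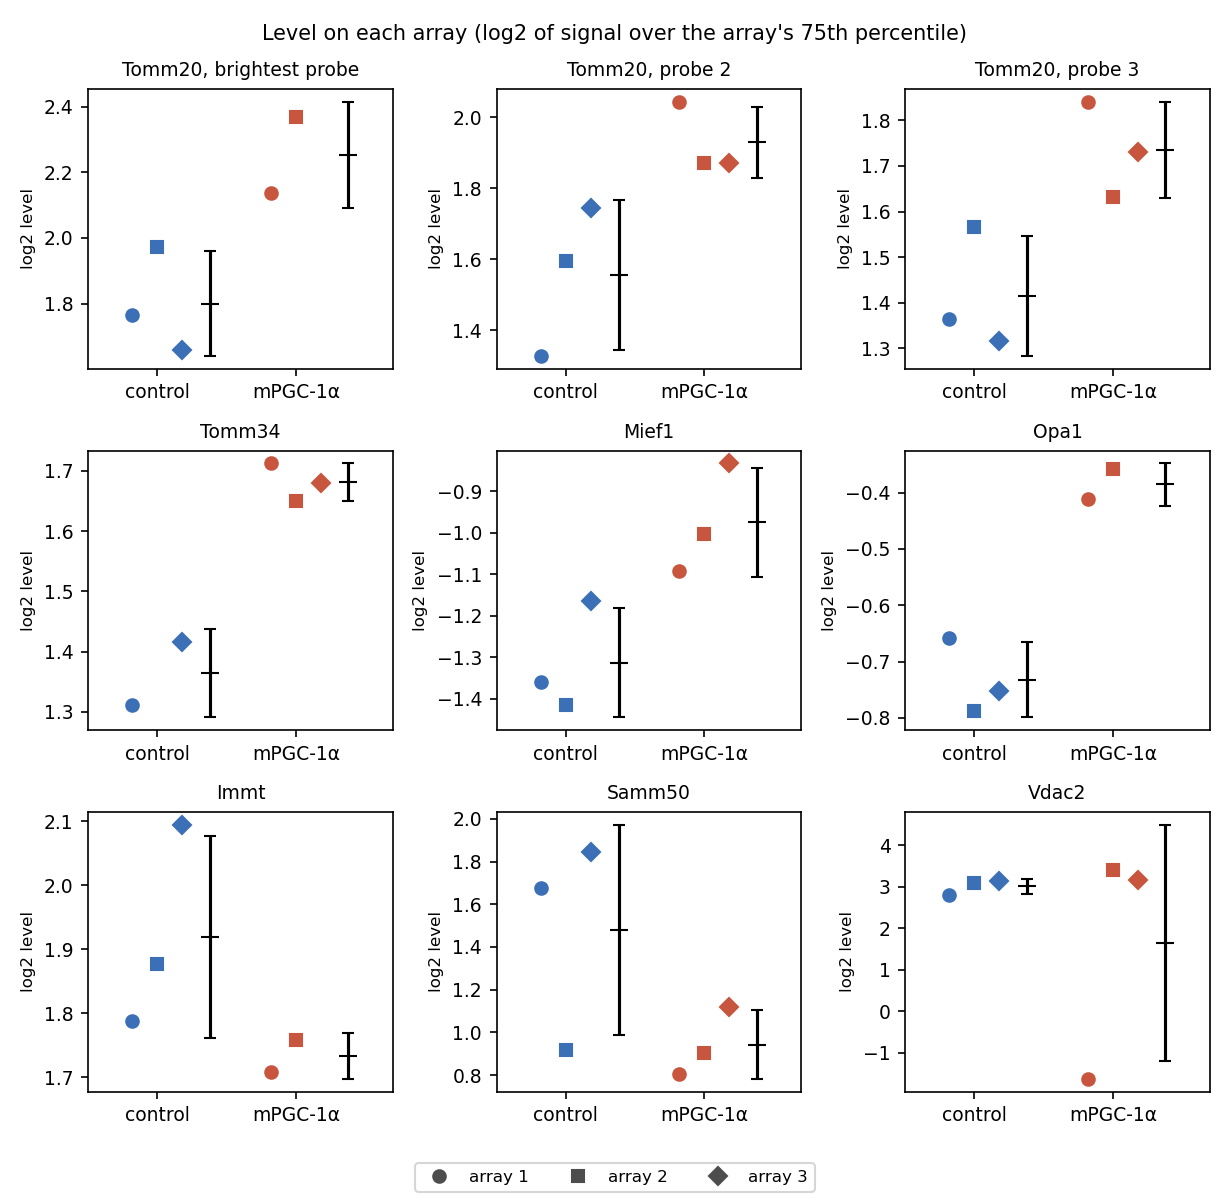
Level of 7 genes on each array (y axes, log2 relative to the 75th percentile of the array, blue for control and red for mPGC-1α, symbols for array number, black marks for mean and SD), with all 3 probes of Tomm20. The mPGC-1α points lie above every control point in the panels of Tomm20, Tomm34, Mief1 and Opa1 and below them in the panel of Immt, where marked spots are not drawn, and Vdac2 has a single point at -1.63.

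Beyond the outer membrane, Timm8a1, Timm8b, Timm9, Timm10, Timm10b and Timm13 encode chaperones that escort membrane proteins across the intermembrane space, and Timm22 encodes the channel that inserts carrier proteins into the inner membrane. Of these 7 genes 6 were above 0, with a median of 0.21 and a range of -0.059 (Timm8a1) to 0.31 (Timm10). The median was 0.12 when control array 1 or 3 was left out, 0.37 when control array 2 was, and 0.083 when mPGC-1α array 3 was. Timm10 had levels of 0.50, 1.00 and 0.33 on the control arrays and 0.93, 0.90 and 0.94 on the mPGC-1α arrays. Control array 2 was above all 3 mPGC-1α arrays and the other control arrays below them, so the groups overlapped, and the difference was 0.31 (SE 0.22, limma adjusted p = 0.815). The same order, with control array 2 highest, was seen for Timm9 at 1.14, 1.75 and 1.07 against 1.64, 1.42 and 1.63. Its difference was 0.24, while its dimmer probe read -1.96 on mPGC-1α array 1 and gave a difference of -0.97. Timm8b (0.25), Timm10b (0.21), Timm22 (0.15) and Timm13 (0.084) all overlapped.

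The TIM23 channel leads matrix proteins through the inner membrane. All 5 of its genes were above 0, from 0.024 (Timm50, the receptor that faces the intermembrane space) to 0.30 (Timm23, the channel subunit), with a median of 0.14. That median was -0.041 without control array 1, 0.024 without mPGC-1α array 3, 0.22 without control array 3, and 0.24 when mPGC-1α array 1 was left out. Timm23 had levels of 1.76, 2.14 and 1.84 on the control arrays and 2.01, 2.18 and 2.44 on the mPGC-1α arrays. The groups overlapped through control array 2, and the difference was 0.30 (SE 0.20, limma adjusted p = 0.805). Timm21 differed by 0.19, and the paralogs Timm17a and Timm17b by 0.14 and 0.054.

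The motor that pulls proteins into the matrix consists of mtHsp70 (Hspa9), its anchor Timm44, the J-proteins Dnajc19 and Pam16, and the nucleotide exchange factor Grpel1. Its 5 genes lay between 0.016 (Hspa9) and 0.22 (Dnajc19), with a median of 0.17. Leaving out control array 1 gave a median of 0.025, and leaving out control array 2 gave 0.40. On the brightest probe of Timm44 the levels were 1.92, 2.30 and 2.03 on the control arrays and 2.28, 2.24 and 2.24 on the mPGC-1α arrays. Control array 2 was again the highest of the 6, and the difference was 0.17 (SE 0.18, limma adjusted p = 0.882). Pam16 and Grpel1 differed by 0.15 and 0.19. Imported proteins are folded in the matrix by the chaperonin Hspd1 and its partner Hspe1. Hspe1 was marked on array 3 of both groups. It read 2.40 and 3.21 in the remaining controls against 3.08 and 3.19, and its difference was 0.33 (SE 0.31, limma adjusted p = 0.863). Those values overlapped. A dimmer probe of Hspe1 with all 6 values did not overlap, at 2.29, 2.77 and 2.50 against 2.80, 2.79 and 2.78, with control array 2 next to the mPGC-1α arrays. Hspd1 differed by 0.097, and its other probe was marked on 5 of 6 arrays and was not tested.

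Of the 5 MICOS genes among the 48, 4 were below 0 and the median was -0.19, and 0 of them had an unadjusted p below 0.05. Leaving out control array 1 moved that median to -0.28, leaving out control array 3 to -0.099, and leaving out mPGC-1α array 1 to -0.027. Immt encodes mitofilin, the core of the complex. Its brightest probe read 1.79, 1.88 and 2.09 on the control arrays and 1.71 and 1.76 on the unmarked mPGC-1α arrays. The measured values did not overlap, but the marked spot on mPGC-1α array 3, at 1.85, lay inside the control range. The difference was -0.19 (SE 0.21, limma adjusted p = 0.893), and an exact permutation test, two-sided, gave p = 0.2. Apoo had the lowest value of the complex, -0.33 (SE 0.30, limma adjusted p = 0.852), with levels of 1.59, 2.67 and 2.15 on the control arrays and 1.40, 2.13 and 1.88 on the mPGC-1α arrays. These overlapped, with control array 2 highest and mPGC-1α array 1 lowest. Chchd6 (-0.24), Chchd3 (-0.14) and Apool (0.092) overlapped too.

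Samm50, the barrel of the SAM complex that inserts outer membrane proteins and contacts MICOS, had the lowest difference of the 48 genes apart from Vdac2. Its level was 1.68, 0.92 and 1.84 on the control arrays and 0.81, 0.90 and 1.12 on the mPGC-1α arrays. Control arrays 1 and 3 lay above the rest, and control array 2 lay among the mPGC-1α arrays. The difference was -0.54 (SE 0.26, limma adjusted p = 0.731), -0.44 on the first slide and -0.72 on the other. Without control array 2 it was -0.82, with a limma adjusted p = 0.044, so that 1 array decided this call. That setting called 5.24% of all probes, and by brightest probe only Samm50 of the 48 genes. The partners of Samm50, Mtx1 and Mtx2 (metaxins), differed by 0.012 and 0.079.

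Fusion is carried out by the mitofusins Mfn1 and Mfn2 on the outer membrane and by Opa1 on the inner one. Opa1 read -0.66, -0.79 and -0.75 on the control arrays and -0.41 and -0.36 on the unmarked mPGC-1α arrays. All measured mPGC-1α values were above the controls, as was the marked spot of array 3 at -0.22. The difference was 0.35 (SE 0.24, limma adjusted p = 0.808), and the exact permutation p, two-sided, was 0.1. A dimmer Opa1 probe gave -0.21 with overlapping groups. When both probes were centred and averaged on each array, the difference was -0.0036. In that average mPGC-1α array 3 rests on the dimmer probe alone, because its brightest spot was marked. Mfn1 and Mfn2 differed by -0.18 and -0.15, with overlap.

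OPA1 is cut by the proteases Oma1 and Yme1l1, which set the balance of its long and short forms. Oma1 read -1.17, -0.71 and -1.73 on the control arrays and -0.98, -0.99 and -0.34 on the mPGC-1α arrays. Control array 3 was the lowest and mPGC-1α array 3 the highest, both on the second slide. The difference was 0.43 (SE 0.32, limma adjusted p = 0.816), but -0.046 on the first slide and 1.40 on the other. Yme1l1 differed by -0.20 (SE 0.25, limma adjusted p = 0.905).

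Fission needs the GTPase DRP1 (Dnm1l) and its outer membrane receptors Fis1, Mff, Mief1 (MiD51) and Mief2 (MiD49). All 5 genes were above 0, from 0.020 (Mff) to 0.34 (Mief1), with a median of 0.17 that was 0.064 without control array 1, 0.098 without mPGC-1α array 1 and 0.099 without mPGC-1α array 2. Mief1 was the gene of the 35 whose groups did not overlap. It read -1.36, -1.42 and -1.16 on the control arrays and -1.09, -1.002 and -0.83 on the mPGC-1α arrays. The gap between the highest control and the lowest mPGC-1α array was smaller than the spread within either group. The difference was 0.34 (SE 0.22, limma adjusted p = 0.797), with the same size on each slide, 0.34 and 0.33, and the exact permutation p, two-sided, was 0.1. Dnm1l (0.11), Fis1 (0.17) and Mief2 (0.18) overlapped. A dimmer probe of Mff differed by -0.50. A second Mief1 probe was too dim to be tested, as was a second probe of Timm22.

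The porins Vdac1, Vdac2 and Vdac3 form the main metabolite channels of the outer membrane. Vdac2 gave the largest difference of the 48 genes, -1.36, with an SE of 1.09 (limma adjusted p = 0.833). Its level was 2.79, 3.10 and 3.13 on the control arrays and -1.63, 3.41 and 3.18 on the mPGC-1α arrays. The difference came from mPGC-1α array 1 alone, where the probe was 21.5-fold below the lowest of the other 5 arrays, and without that array it was 0.28. The scanner software had not marked the spot. On that array 133 of the 36995 probes with a value on all 6 arrays lay at least 3 log2 units below every other array, against 0 to 3 on each of the other 5 arrays. Vdac1 and Vdac3 differed by 0.011 and -0.026.

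More than 1 probe was tested for 24 of the 48 genes, and for 10 of these the probes differed in sign. Over the 28 dimmer probes the median difference was 0.012, with 15 above 0, and 22 lay below the brightest probe of their gene. Over all genes, 40% of dimmer probes were above 0 and 68.4% lay below the brightest probe. None of the 28 had a limma adjusted p below 0.05. An unadjusted p below 0.05 was found for 2 of 28, Immt and Mfn1, where 14.8% of all dimmer probes had one. Of the 24 dimmer probes with 6 values, 3 had no overlap between the groups, both of Tomm20 and 1 of Hspe1, against 15.1% of all dimmer probes with 6 values.

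**Figure D4:**
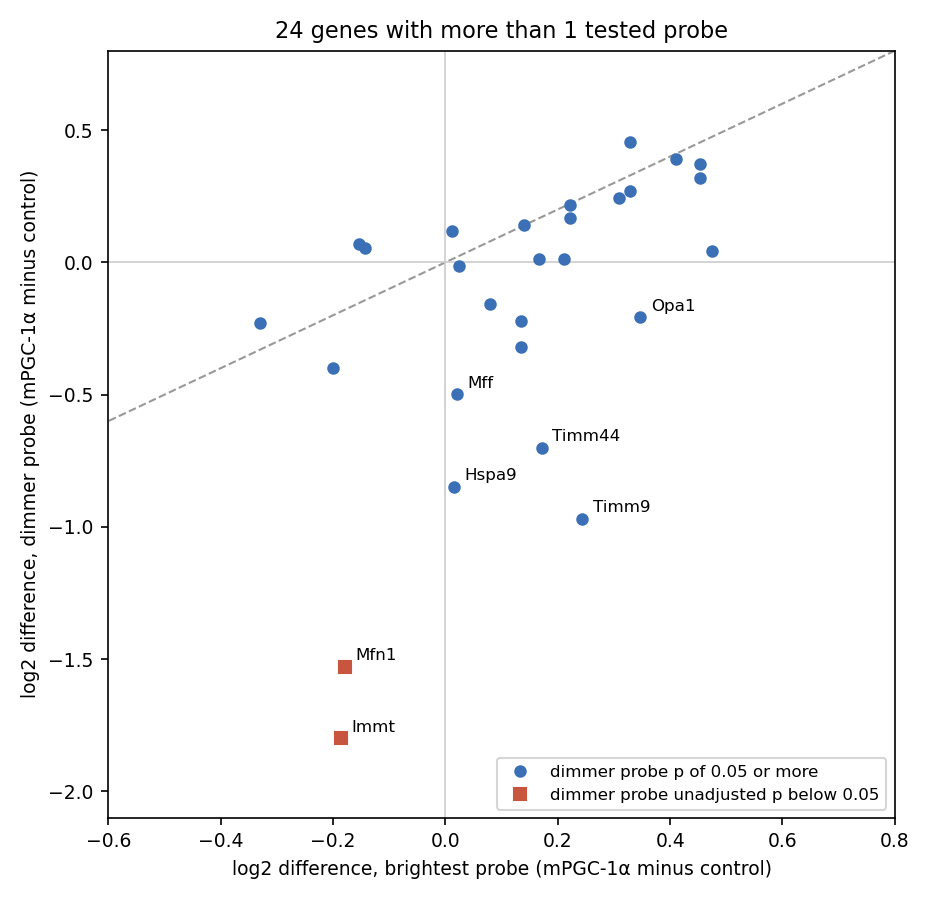
Difference of each of 28 dimmer probes (y axis) against the brightest probe of the same gene (x axis), both in log2, mPGC-1α minus control, with a dashed line where the 2 are equal and gene names where they differ by more than 0.5. All 7 named probes lie below the line, and Immt and Mfn1 at -1.80 and -1.53 lie furthest down. The 7 are 25% of the 28. Over all genes, 31.5% of dimmer probes lie more than 0.5 below the brightest and 6.57% more than 0.5 above it.

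The dimmer probe of Immt (A_55_P2736944) read 1.07, -0.56 and 1.61 on the control arrays and -0.21, -1.83 and -1.25 on the mPGC-1α arrays, which differ by -1.80 (SE 0.56, limma adjusted p = 0.669). That of Mfn1 (A_55_P2609846) read -0.87, -3.02 and -1.56 against -2.87, -3.69 and -3.49, a difference of -1.53 (SE 0.51, limma adjusted p = 0.669). In both, control arrays 1 and 3 lay above all 3 mPGC-1α arrays and control array 2 lay among them. The dimmer probes of Timm44 and Hspa9 also had control arrays 1 and 3 highest. That of Timm44 read 1.23, -0.42 and 1.21 against -0.10, 0.014 and 0.0073, and that of Hspa9 1.55, 0.092 and 1.37 against 0.14 and 0.18, with control array 2 below every measured mPGC-1α array. Their differences were -0.70 and -0.85, where the brightest probes gave 0.17 and 0.016. Control arrays 1 and 3 were also highest on dimmer probes of Mff, Yme1l1 and Mtx2, which differed by -0.50, -0.40 and -0.16. The same was seen on the brightest probes of Samm50, of the pathway gene Agk, of the microglia marker Olfml3 and of the endothelial marker Pecam1. How many probes of the whole array share this order was not counted. Leaving out control array 2 gave -2.43 for Immt, -2.13 for Mfn1, -1.25 for Timm44 and -1.30 for Hspa9, with limma adjusted p-values of 0.019, 0.0096, 0.0057 and 0.0136. Over the whole array that setting called 2164 of 41288 probes (5.24%), against 0 of 40745 with all arrays, so the calls turn on 1 control array. With the replicate number as a block and the 75th percentile taken over unmarked probes, a setting chosen after seeing the data, Immt (-1.70, limma adjusted p = 2.3e-05) and Mfn1 (-1.43, limma adjusted p = 0.00283) were called, among 1720 probes (4.22% of those tested). With the block alone, which called 1 of 40745 probes (0.00245%), the adjusted p-values were 0.103 and 0.107. What the dimmer probes of a gene measure beside its brightest probe was not tested.

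**Figure D5:**
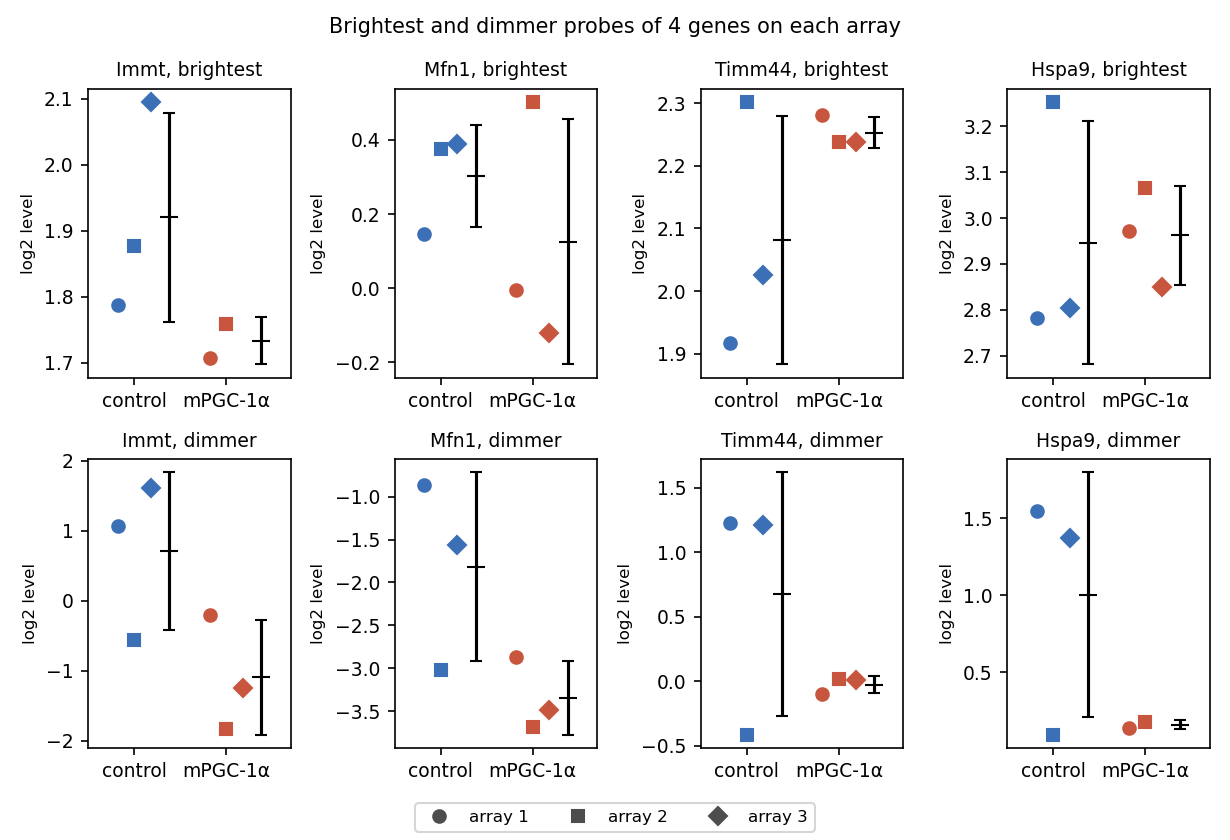
Level on each array of the brightest probe (top row) and of a dimmer probe (bottom row) of Immt, Mfn1, Timm44 and Hspa9 (y axes, log2 relative to the 75th percentile of the array, blue for control and red for mPGC-1α, symbols for array number, black marks for mean and SD). In the bottom row control arrays 1 and 3 stand above the other arrays and control array 2 lies with or near the mPGC-1α arrays, which the top row does not show.

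Several of these genes belong to pairs that share a function, and the balance within a pair was compared as the difference of their 2 levels on each array. Of 9 such pairs, Tomm40 against Tomm40l had the smallest exact permutation p, two-sided, at 0.1, which is 0.9 after Benjamini-Hochberg adjustment. The level of Tomm40 minus that of Tomm40l was 3.13, 3.37 and 3.30 on the control arrays and 2.77, 2.96 and 3.04 on the mPGC-1α arrays. The groups did not overlap, and the balance differed by -0.34. It rests on the brightest probe of each gene, and the dimmer probe of Tomm40l differed by 0.042. The other pairs had an adjusted p of 1, among them Mfn1 against Mfn2, with a difference of -0.024, and Mief1 against Mief2, with 0.16.

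A wider list of 53 tested genes of the same pathways was examined in the same way. None had a limma adjusted p below 0.05 and 3 had an unadjusted p below 0.05. The median difference was 0.09, with 33 above 0, and 5 of 39 did not overlap (12.8% against 11.2%). By group, the medians were -0.017 for import and sorting (5 of 14 above 0), 0.027 for proteases (7 of 12), 0.15 for the cristae and inner membrane scaffold (8 of 10) and 0.28 for fusion, fission and distribution (13 of 17). Mipep, which trims the presequence of imported proteins, read -1.11, -2.35 and -1.09 on the control arrays and -3.08, -2.56 and -2.68 on the mPGC-1α arrays, which differ by -1.26 (SE 0.37, limma adjusted p = 0.669). Mtfr1, a fission regulator, read -0.69, -1.45 and -0.39 against -2.03, -1.68 and -1.84, a difference of -1.01 (SE 0.30, limma adjusted p = 0.669). In both, all mPGC-1α arrays were below all controls, with control array 2 nearest to them. Gdap1, a fission factor best known in neurons, read -5.70, -4.85 and -5.90 against -4.02, -3.18 and -4.95, a difference of 1.43 (SE 0.49, limma adjusted p = 0.669) with overlapping groups, and was well above background on 2 of the 3 control arrays. The neuron markers given above were also higher in median, and their part in the Gdap1 value was not tested. The largest differences in the other groups were 0.32 for Timmdc1 and -0.71 for Agk, both of import and sorting, 0.37 for the inner membrane peptidase Immp2l, and 0.33 for Micos10 and -0.56 for Chchd10 of the cristae. Without control array 2, Agk (-1.25), Mipep (-1.67) and Mtfr1 (-1.31) were called, with limma adjusted p-values of 0.015, 0.0065 and 0.013. These are 3 of 53 genes (5.66%), where that setting called 5.24% of all probes.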

How the data were processed

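The authors selected microglia with magnetic beads against P2RY12. Total RNA was amplified, labelled and hybridised to single-colour Agilent arrays, 1 per sample. The deposited scanner files give intensity on a linear scale as written by Agilent Feature Extraction 11.5.1.1, background-subtracted and detrended within the array but not normalized between arrays. The labels name Cy3 in one field and Cy5 in another, and the single green channel was used. The authors' matrix of log2 values, normalized between arrays in GeneSpring, holds 46731 of 56605 probes and was used as an alternative.

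Processed signals were divided by the 75th percentile of the non-control spots of their array and then log2-transformed (R 4.3.3). Outlier-marked spots were left out, and saturated spots would have been kept. Testing was limited to probes with at least 2 values per group that were well above background on every unmarked array of at least 1 group, which left 40745 probes. Of 56605 probes, 33767 matched a RefSeq gene by accession, and no sequence or position of a probe was used. Groups were compared with limma 3.58.1 (intensity trend, two-sided) and Benjamini-Hochberg adjustment over all tested probes, with a threshold of 0.05, and single genes also with an exact permutation test over all 20 assignments. The methods name no test for the arrays. Each gene is described by its probe with the highest mean, and dimmer probes are described separately. The procedure was tested on simulated data.

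Genes were named with every value if they were Tomm20 or Immt, had the smallest p of their role, did not overlap between groups, or had a probe with an unadjusted p below 0.05. Pathway genes were named by an unadjusted p below 0.05 or the largest difference of their group. The members and lists were chosen with earlier results of these data known. The order of arrays on the dimmer probes of Timm44, Hspa9, Mff, Yme1l1 and Mtx2 and the count of probes low on a single array were examined after values were seen. Normexp started from the median intensity of each spot. Arrays with the same replicate number correlated in their deviations from the group mean at 0.247, 0.224 and 0.171. The other combinations lay between -0.337 and 0.035. Deviations within a group offset each other, so these correlations are not independent. The main fit used the group only and did not pair arrays. The replicate numbers were treated as pairs only in the replicate block, an alternative, and no label says what they stand for. The arrays lay on 2 slides, fitted as a block in an alternative.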

Additional observations from a re-analysis of the deposited data

How the results depend on the processing

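None of the 48 genes was called by its brightest probe under quantile normalization, normexp, array median scaling, the authors' values, either filter on dim probes, marked spots kept, the slide block, the replicate block, eBayes without trend or the mean of all probes. Their median stayed above 0 under every alternative, and so did the median of all genes. The median of the 48 was the lower of the 2 in the authors' values (0.072 against 0.083). The same held for the replicate block with quantile normalization (0.115 against 0.127). It held also without control array 1 (0.0046 against 0.015) and without mPGC-1α array 3 (0.077 against 0.11). Under the other settings the median of the 48 was the higher. The replicate block changed no call of the 48 or the other pathway genes in the main scaling. There it called 1 of 40745 probes (0.00245%) and moved Tomm6 (-0.012) and Vdac3 (0.016) across 0. How many probes it called turned on the scaling. With the 75th percentile over unmarked probes, an alternative chosen after seeing the data, the block called 1720 probes (4.22% of those tested). Among them were 1 of the 48 genes by its brightest probe (Vdac2, -1.26, limma adjusted p = 0.015), 2 of 53 other pathway genes (3.77%) and Cx3cr1 (-1.15). Without the block that scaling called 0. Vdac2 was low on mPGC-1α array 1 alone, at -1.63 in the main scaling, where the other arrays read 2.79 to 3.41. On mPGC-1α array 3, 5.66% of probes were marked, and 87.9% of these lay above the 75th percentile. The cause of these changes was not tested beyond this.

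The count of genes without overlap, 1 of 35 (2.86%, against 11.2% of all genes), was 2 of 35 after quantile normalization with or without the block (5.71% against 10.6%), 7 of 35 after array median scaling (20% against 15.3%), 5 of 48 in the authors' values (10.4% against 11.46%), 3 of 48 with marked spots kept (6.25% against 11.3%), 3 of 44 with the mean of all probes (6.82% against 11.2%), and 2 of 35 with the percentile over unmarked probes with or without the block (5.71% against 11.0%). Leaving out 1 array gave 1 to 19 genes without overlap, of 35 to 42 with a value on every remaining array, and 16.2% to 43.8% over all genes. The highest, 19 of 36 (52.8%), and the 43.8% were both without control array 2. Leaving out 1 array called 0 to 1 of the 48 and 0 to 3 other pathway genes. The 1 and the 3 were both without control array 2, where 5.24% of all probes were called. Cx3cr1 ranged from -1.43 to -1.05 and was called without control array 2 (-1.41, limma adjusted p = 0.013).

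Differences that crossed 0 were Timm50 (-0.10), Dnajc19 (-0.024), Hspa9 (-0.033), Fis1 (-0.088) and Vdac1 (-0.044) after quantile normalization, Timm50 (-0.061), Hspa9 (-0.077), Fis1 (-0.051), Mff (-0.10) and Vdac1 (-0.010) after normexp, Tomm7 (0.043) and Timm8a1 (0.0094) after array median scaling, and Tomm6 (-0.062), Timm50 (-0.11), Hspa9 (-0.10), Hspd1 (-0.0099), Mtx1 (-0.051), Mff (-0.046), Vdac1 (-0.11) and Vdac3 (0.0090) in the authors' values. With marked spots kept they were Timm50 (-0.051), Mtx1 (-0.010) and Vdac3 (0.077), with the slide block Tomm6 (-0.012) and Vdac3 (0.016), and with the replicate block after quantile normalization Tomm6 (-0.089), Timm50 (-0.056), Hspa9 (-0.033) and Vdac1 (-0.044). With the mean of all probes they were Tomm40 (-0.14), Timm9 (-0.27), Timm44 (-0.26), Hspa9 (-0.35), Mtx2 (-0.039), Opa1 (-0.0036) and Mff (-0.24). With the percentile over unmarked probes they were Timm8a1 (0.036) and Timm50 (-0.035), and with the block as well Tomm6 (-0.0011), Timm8a1 (0.036) and Vdac3 (0.027). Leaving out 1 array gave ranges that crossed 0 for Tomm6 (-0.38 to 0.47), Tomm7 (-0.44 to 0.40), Timm8a1 (-0.15 to 0.11), Timm13 (-0.15 to 0.37), Timm17a (-0.046 to 0.26), Timm17b (-0.064 to 0.24), Timm21 (-0.024 to 0.33), Timm50 (-0.056 to 0.13), Pam16 (-0.049 to 0.45), Hspa9 (-0.066 to 0.17), Hspd1 (-0.011 to 0.17), Hspe1 (-0.076 to 0.73), Chchd3 (-0.28 to 0.031), Chchd6 (-0.41 to 0.010), Apool (-0.0069 to 0.15), Mtx1 (-0.049 to 0.074), Mtx2 (-0.024 to 0.14), Fis1 (-0.071 to 0.40), Mff (-0.12 to 0.13), Vdac1 (-0.17 to 0.13), Vdac2 (-2.24 to 0.28) and Vdac3 (-0.11 to 0.020).

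Among the group medians, the microglia markers gave -0.036 after quantile normalization, with or without the block, -0.016 after normexp, 0.18 after array median scaling, -0.026 in the authors' values, -0.049 with the mean of all probes, 0.20 with the percentile over unmarked probes and 0.20 with the block as well. The porins gave -0.18, -0.17 and -0.67 after quantile normalization, normexp and the strict filter, and the SAM complex gave -0.23 with the strict filter and 0.17 with the percentile over unmarked probes, with or without the block. The balance of Tomm40 minus Tomm40l was -0.53 in the authors' values, and that of Mfn1 minus Mfn2 -0.81 with the mean of all probes. Leaving out 1 array gave 0.16 to 0.44 for the TOM complex, 0.083 to 0.37 for the small TIM chaperones and TIM22, 0.025 to 0.40 for the import motor, -0.28 to -0.027 for MICOS, -0.049 to 0.074 for the SAM complex, -0.28 to -0.020 for fusion, -0.017 to 0.23 for the OPA1 proteases, -0.041 to 0.24 for the TIM23 channel, 0.017 to 0.45 for matrix folding, 0.064 to 0.22 for fission, -0.17 to 0.016 for the porins, -0.011 to 0.20 for microglia markers, 0.37 to 1.22 for astrocyte markers and 0.075 to 0.31 for endothelial and mural markers. With 3 arrays a group, the median half-width of the 95% interval of one of the 48 genes was 0.51 before any adjustment, and larger differences than this, such as that of Samm50, did not pass the adjusted threshold.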
